A study of Mus musculus with 29 samples.

Results

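The long type 1 domains are the 546 stretches of mouse chromosomes 1 to 19 that a deposited segmentation of H2Aub labelled type 1 over at least 250 kb without a break. They were chosen by their label and length: the segments were sorted by position, touching segments of the same type were merged, type 1 segments of at least 250 kb were kept, and the first segment of each chromosome was left out. The rule kept 546 of 7945 type 1 segments (6.87%), out of 31563 segments of 5 types in all. Length and type were thus used to select the members and are given only as a description.

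H2Aub is histone H2A carrying a single ubiquitin on a lysine of its tail, a mark written by Polycomb repressive complex 1 and removed by deubiquitinases such as PR-DUB. The mark often lies together with H3K27me3, the methylation written by Polycomb repressive complex 2, of which Eed is a core subunit, and both are known for covering CpG-rich promoters of silent developmental genes. In oocytes and early embryos, Polycomb marks are known to form broad domains as well, away from such promoters. CUT&RUN maps a mark by cutting DNA around antibody-bound nucleosomes in place. From such maps ChromHMM, a hidden Markov model, assigns each stretch of the genome to a state.

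The study profiled H2Aub in 24 libraries and H3K27me3 in 5 libraries, in 16 groups of 1 to 3 libraries, each made from 1 to 300 pooled or single oocytes or embryos where the labels give the number. Germinal vesicle oocytes (Eed (fl/fl), B6/129 mixed), metaphase II oocytes (WT, B6/DBA), zygotes, inner cell mass and E6.5 epiblast (WT x WT, B6/DBA x PWK), 2-cell embryos of both crosses, and 4-cell embryos and morulae (Eed (fl/fl) x WT, B6/129 mixed x PWK) gave the wild-type series. Gdf9-Eed (fl/fl) oocytes, and 4-cell embryos and morulae from such mothers crossed to WT males, lacked maternal Eed. Gdf9 drives the deletion in growing oocytes, and the embryos carried a paternal WT allele. The PR-DUB (CTR) and PR-DUB (OE) 4-cell embryos were WT x WT of the B6/DBA x PWK cross, and H3K27me3 was also profiled in WT B6/DBA germinal vesicle oocytes. The segmentation is 1 table for all of these, with no column for any library, stage or genotype. Neither the libraries from which it was learned nor a key to its types is stated in the sources used here. No level of H2Aub is therefore attached to type 1 below, no replicate error can be given, no test was made, and the depth behind each label is unknown.

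Promoter windows from some of the longest domains are shown first. Each window runs from 250 bases before to 50 bases after an annotated start, in RefSeq coordinates of GRCm38.p6 (mm10), printed 5′ to 3′ on the gene's strand with every CpG in capitals. The genes shown are some of those with the highest or lowest ratio of observed to expected CpG in their domain. The ratio divides the number of CpG pairs by the number that the C and G content alone would give.

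The first pair lay far apart in 1 domain on chromosome 7 and shows what copied promoters look like. Vmn2r48 (chr7:9953536-9953835, minus strand) and Vmn2r31 (chr7:7399578-7399877, minus strand) encode type 2 vomeronasal receptors, pheromone receptors of the rodent nose.
Vmn2r48: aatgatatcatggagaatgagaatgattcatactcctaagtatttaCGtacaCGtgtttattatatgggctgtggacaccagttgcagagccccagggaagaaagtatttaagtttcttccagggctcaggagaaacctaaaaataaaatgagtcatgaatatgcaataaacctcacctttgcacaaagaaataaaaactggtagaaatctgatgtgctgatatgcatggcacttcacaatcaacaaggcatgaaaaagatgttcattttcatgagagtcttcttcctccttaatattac
Vmn2r31: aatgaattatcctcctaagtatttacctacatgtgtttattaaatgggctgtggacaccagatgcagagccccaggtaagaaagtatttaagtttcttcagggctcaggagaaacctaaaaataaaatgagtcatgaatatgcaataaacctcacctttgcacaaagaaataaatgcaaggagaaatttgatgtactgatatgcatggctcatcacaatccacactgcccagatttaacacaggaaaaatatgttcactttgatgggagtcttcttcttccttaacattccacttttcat
Vmn2r48 had 2 CpGs and Vmn2r31 had 0. Of the 31-base words in these windows, 70.7% and 100% were found again at another position among the annotated promoter windows.

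The next window is that of Vmn1r258 (chr7:22984624-22984923, minus strand), a type 1 vomeronasal receptor gene in the longest domain, and the one after it that of Gm46934 (chr5:94777966-94778265, plus strand), a gene of the Pramel cluster known only by a provisional name.
Vmn1r258: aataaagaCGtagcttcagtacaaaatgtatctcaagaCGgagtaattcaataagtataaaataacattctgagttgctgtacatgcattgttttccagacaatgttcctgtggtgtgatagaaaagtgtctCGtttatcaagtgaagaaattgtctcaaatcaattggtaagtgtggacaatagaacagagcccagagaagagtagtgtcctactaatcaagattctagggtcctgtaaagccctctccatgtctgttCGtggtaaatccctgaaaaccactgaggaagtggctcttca
Gm46934: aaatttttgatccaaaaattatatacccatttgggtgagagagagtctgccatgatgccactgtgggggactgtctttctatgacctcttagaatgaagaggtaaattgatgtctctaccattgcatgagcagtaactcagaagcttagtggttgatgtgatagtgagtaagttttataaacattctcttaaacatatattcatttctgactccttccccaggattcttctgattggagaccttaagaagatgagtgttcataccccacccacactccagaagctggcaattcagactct
Vmn1r258 had the highest ratio of its domain, 0.35, from 4 CpGs, and Gm46934 had 0 CpGs. All 31-base words of both windows were found again at another position among the annotated windows. Copying was not uniform within a domain: Gm5891, also in the longest domain and with 0 CpGs, had 3.70% of its words elsewhere.

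The last pair comes from 1 domain on chromosome 9 and shows a CpG-rich and a CpG-poor promoter without copies. Kbtbd3 (chr9:4309493-4309792, plus strand) encodes a protein with BTB and kelch repeats, and Casp1 (chr9:5298267-5298566, plus strand) the protease that activates interleukin-1 beta.
Kbtbd3: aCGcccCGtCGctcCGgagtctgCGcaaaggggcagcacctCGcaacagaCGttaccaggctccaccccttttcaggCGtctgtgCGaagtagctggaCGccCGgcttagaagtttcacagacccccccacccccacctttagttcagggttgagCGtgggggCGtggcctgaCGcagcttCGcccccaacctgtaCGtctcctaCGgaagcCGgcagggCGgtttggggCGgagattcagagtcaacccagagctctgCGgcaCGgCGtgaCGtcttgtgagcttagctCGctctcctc
Casp1: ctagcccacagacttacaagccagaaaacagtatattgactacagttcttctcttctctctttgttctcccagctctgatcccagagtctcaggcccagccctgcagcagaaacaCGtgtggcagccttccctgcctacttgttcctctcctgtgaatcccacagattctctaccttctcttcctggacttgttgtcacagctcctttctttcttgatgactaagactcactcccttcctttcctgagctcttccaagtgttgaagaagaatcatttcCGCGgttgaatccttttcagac
Kbtbd3 had 25 CpGs, a ratio of 0.83, and Casp1 had 3, a ratio of 0.20. No 31-base word of either occurred in another window.

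The domains covered 253.45 Mb. That was 32.0% of all type 1 length and 10.3% of the 2464 Mb of summed segment length. Their median length was 357.5 kb, with quartiles of 290 and 498.75 kb, and their mean was 464 ± 327 kb (SD, n = 546 domains). Of the 546, 137 reached 500 kb and 28 reached 1 Mb, and those 28 held 43.87 Mb (17.3% of the domain length). The longest measured 3.37 Mb. At the threshold, 23 domains were exactly 250 kb long and 21 internal type 1 segments were 245 kb long, 1 bin of 5 kb short of it. Merging joined no segments, because no 2 touching segments had the same type. Among the other types, type 2 had 114 segments of at least 250 kb, type 3 had 163, type 4 had 211 and type 5 had 531.

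**Figure D1:**
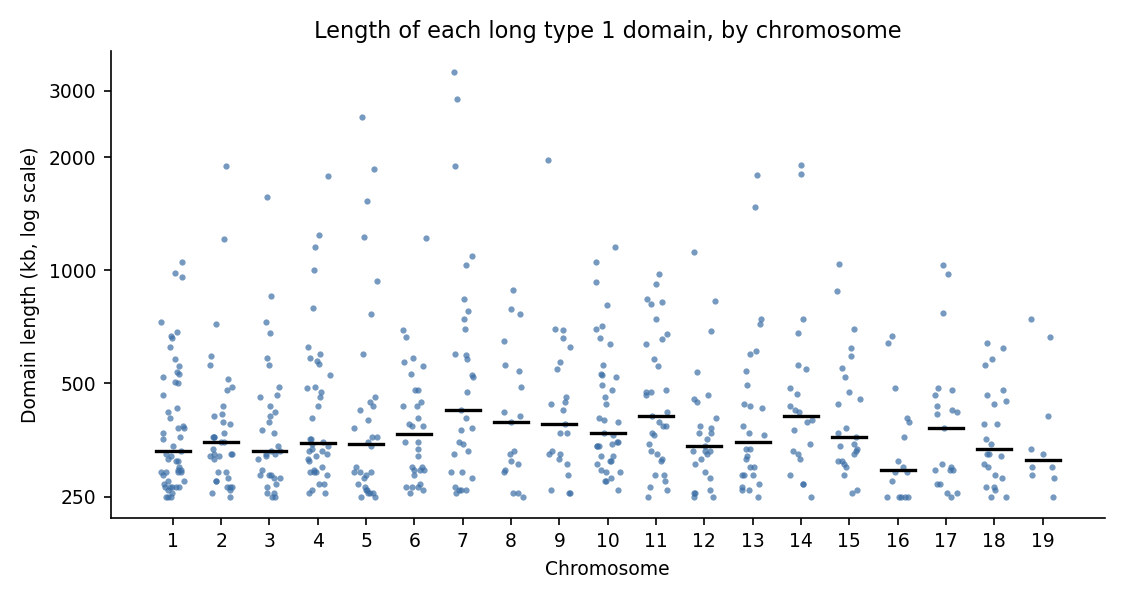
Length of each of the 546 long type 1 domains (points, kb on a log scale) by chromosome, with black bars at the chromosome medians, which ran from 295 kb on chromosome 16 to 425 kb on chromosome 7. The 2 longest domains, of 3.37 and 2.855 Mb, lay on chromosome 7.

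Every autosome held long domains, from 10 on chromosome 19 to 53 on chromosome 1. They took up 5.77% of chromosome 16 and 14.9% of chromosome 7, the lowest and highest shares, with a mean of 10.1 ± 2.46% (SD, n = 19 chromosomes). Within chromosomes the domains gathered toward the start, which in mouse is the centromere end. Counting from the end of each chromosome's first segment, the first 2 deciles held 241 domains, 44.1% of them and 46.1% of their length. The shorter internal type 1 segments had 27.0% of their length there, and an even spread would give 20%. The share exceeded 20% on all 19 chromosomes, from 30.8% on chromosome 10 to 62.5% on chromosome 16, with a median of 42.4%. From the fourth decile on, each decile held between 28 and 43 domains.

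**Figure D2:**
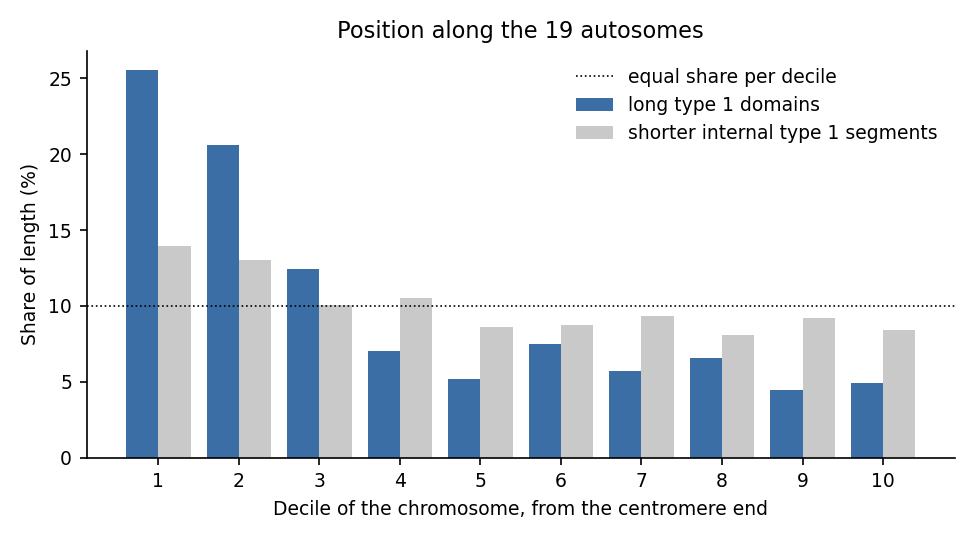
Share of the length (%) of long type 1 domains (blue) and of shorter internal type 1 segments (grey) in each decile of the 19 autosomes, counted from the centromere end and leaving out each chromosome's first segment; the dotted line marks an equal share. The blue bars fall from 25.5% in the first decile to 4.92% in the last, while the grey bars run from 14.0% to 8.41%.

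The domains were bordered mainly by types 2 and 3. Of their 1085 sides, 40.2% met type 2, 35.9% type 3, 22.5% type 5 and 1.38% type 4. The sides of shorter internal type 1 segments met type 3 in 52.9%, type 2 in 32.7% and type 5 in 13.2%. The bordering type 2 and type 3 segments were short, with medians of 15 and 20 kb, whereas bordering type 5 segments had a median of 95 kb. The most frequent arrangement was type 2 on both sides (138 domains), followed by type 3 on both sides (127). At 12 sides the deposited segments overlapped rather than touched.

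Neighbouring domains lay a median of 1390 kb apart, but 64 pairs were separated by a single segment, of type 2 in 26 pairs, type 3 in 20 and type 5 in 18. The median length of that segment was 20 kb. Domains no more than 50 kb apart formed 42 chains of 2 or 3, with 91 domains in all. The longest chain, chr7:19970001-23765000, joined the longest domain of all to a domain of 405 kb with Nlrp5 and held 97 protein-coding genes. The next, chr12:21795001-24455000, joined 3 domains with 13 genes, most under provisional names, and chr7:13270001-15665000 joined 3 domains with 18 genes, among them Lig1 (a DNA ligase gene), Sult2a1 and its sulfotransferase relatives, and Obox1. In another chain, chr1:142250001-143835000, a gap of 10 kb separated a domain without protein-coding genes from a domain with 5, Cdc73 and Uchl5 among them. A further one, chr10:109295001-110180000, paired a domain that no protein-coding gene touched with a domain whose only protein-coding gene was Nav3, a neuron navigator gene. The ninth longest domain, chr14:5930001-7735000, was separated by 10 kb of type 3 from the first segment of its chromosome, which the rule left out.

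Of 20558 protein-coding genes placed on the segmented chromosomes, 1725 had most of their body in a long domain, 8.39% of all genes, and 1526 of these lay wholly inside. The domains held 6.81 protein-coding genes per Mb. Shorter internal type 1 segments held 12.3 per Mb, type 3 14.8, type 4 8.61, type 2 4.03 and type 5 3.33, against 8.34 over all segments. Between chromosomes the density in long domains ranged from 1.62 per Mb on chromosome 15 to 12.5 on chromosome 7, with a mean of 6.95 ± 2.99 (SD, n = 19 chromosomes). The differences from the shorter type 1 segments, type 3 and type 5 exceeded 1 SD of that spread, and the differences from type 2 and type 4 did not.

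The genes were spread unevenly over the domains. The median domain held 1 protein-coding gene, 137 domains (25.1%) touched none, and 31 domains with 10 or more held 572 genes (33.2% of the genes inside). A further 129 domains touched exactly 1 protein-coding gene, and 54 lay within the body of 1 gene. The longest domains that no protein-coding gene body touched were chr4:37790001-38940000, chr1:142250001-143305000, chr15:14090001-15130000, chr17:16015001-16995000 and chr11:92090001-93010000, with 4, 2, 1, 11 and 3 annotated genes of other kinds.

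Several kinds of non-coding gene were also placed in the domains. Pseudogenes made up 32.9% of the 4486 annotated genes inside, against 18.8% of all annotated genes, and long non-coding RNA genes 12.9% against 26.4%. Neither share was particular to long domains. Type 5 had 32.1% pseudogenes, whereas types 2 to 4 had between 11.7% and 20.9%. Shorter internal type 1 segments lay close to all annotated genes in pseudogenes. They had 14.6% long non-coding RNA genes, whereas types 2 to 5 had at least 21.6%. By kind, 16.8% of all pseudogenes lay in the domains and 4.69% of long non-coding RNA genes, where 9.6% of all annotated genes did. Of 1276 small nucleolar RNA genes, 320 (25.1%) were inside. Most of these were in a pair of domains: chr7:59350001-59610000 held 124 and chr7:59670001-60250000 held 72. The second of these also held 57.2% of the body of Snrpn, the imprinted gene of the Prader-Willi region, and Snord116 copies were among its small nucleolar RNA genes. Of 374 annotated V segments, the pieces from which antigen receptor genes are assembled, 58 (15.5%) were inside. They comprised 17, 8 and 5 immunoglobulin kappa V segments in 3 domains of chromosome 6, 12 heavy chain V segments on chromosome 12, 10 T cell receptor alpha V segments on chromosome 14, and 3 each of the T cell receptor gamma and immunoglobulin lambda loci. Of 1136 microRNA genes, 36 (3.17%) were inside, among them Mir21a, Mir199a-1 and the group Mir876, Mir873a and Mir873b.

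The 10 longest domains were mostly arrays of related genes. The longest, chr7:19970001-23340000, held 88 protein-coding genes, of which 70 were vomeronasal receptor genes. Its first genes by position were Ceacam20, Nlrp9b and Vmn1r91, and its last Vmn1r166, Gm6902 and Nlrp4e. The second, chr7:7305001-10160000, held 23 genes, 22 of them vomeronasal receptor genes such as Vmn2r30 and Vmn2r51. The third, chr5:93330001-95880000, held 30, including 18 Pramel genes, relatives of the cancer-testis antigen PRAME. The sixth, chr7:31530001-33425000, consisted of 21 Scgb genes, which encode secretoglobins such as salivary androgen-binding proteins. The seventh (chr2:175180001-177070000) and the tenth (chr13:65310001-67105000) each held 20, including 5 and 3 numbered zinc finger genes beside provisional ones. The fifth (chr14:41205001-43115000) and the ninth held 26 and 31, nearly all under provisional names. The eighth, chr5:10770001-12625000, held 5, among them Speer1 and the semaphorin gene Sema3d.

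The fourth longest domain differed from the others in make-up. It spanned 1.96 Mb, chr9:4175001-6135000, and held 7 protein-coding genes: Aasdhppt, Kbtbd3, Msantd4, the AMPA receptor subunit gene Gria4, and the inflammatory caspase genes Casp1, Casp4 and Casp12. None of its 7 promoter windows was copied. Aasdhppt, Kbtbd3, Msantd4 and Gria4 had CpG ratios of 0.79, 0.83, 0.61 and 0.66. Casp1, Casp4 and Casp12 had ratios of 0.20, 0.38 and 0.25.

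The densest of the 5 domains with the most genes was chr8:20955001-21745000, with 30 genes in 790 kb. It held all 28 alpha-defensin (Defa) genes of the annotation, which encode antimicrobial peptides of intestinal Paneth cells. By family, named by the letters of a symbol before its first digit, other high shares were 72.7% of 22 Mup genes (major urinary proteins, in chr4:60015001-61795000), 60.0% of 45 Pramel, 52.5% of 40 Scgb, 47.6% of 21 Sult (sulfotransferases), 45.0% of 351 Vmn and 37.5% of 24 Fbxw genes. Of the Mup genes inside, 16 in number, none lay in another domain. Genes with provisional names had 30.6% (LOC symbols) and 29.7% (Gm symbols) inside. Of 115 families with at least 20 members, 39 had none inside, the largest being 120 genes under the letter H, 80 Rnf, 56 Krtap, 53 Krt, 49 under the letter C, 47 Ankrd, 42 Defb (beta-defensin) and 39 Prss genes. The alpha- and beta-defensins were thus separated: 28 of 28 against 0 of 42.

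On the remaining chromosomes the longest domain was gene-poor in several cases. On chromosome 3 it spanned chr3:23185001-24750000 (1565 kb) with Naaladl2 as its only protein-coding gene, and on chromosome 6 chr6:45535001-46755000 (1220 kb) with Cntnap2, a neurexin family gene. The longest domains of chromosomes 1, 10, 15 and 18 had 0 protein-coding genes mostly inside, although 1 gene body reached into that of chromosome 10. On chromosome 17 chr17:21540001-22575000 (1035 kb) held 17 genes, 14 of them numbered zinc finger genes such as Zfp52 and Zfp758. On chromosome 19 chr19:7805001-8545000 (740 kb) held 4 organic anion transporter genes, Slc22a27 to Slc22a30. On chromosome 16 chr16:16215001-16885000 (670 kb) held 10, including Dnm1l of mitochondrial fission, the plakophilin gene Pkp2 and the surrogate light chain genes Igll1 and Vpreb1. On chromosome 11 chr11:30360001-31335000 (975 kb) held 7 genes, among them the proteasome activator gene Psme4. The domains of chromosomes 8 (885 kb) and 12 (1120 kb) held 3 and 6 genes with provisional names.

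Long gene bodies also lay in the domains. The longest gene bodies wholly inside were those of Lama2, a laminin subunit gene of 636 kb in a domain of 810 kb on chromosome 10, and Vps13b, a lipid transfer protein gene of 560 kb in a domain of 620 kb on chromosome 15. Next came Spock3, Plxdc2, Dnah7c, Gria4, St18, Mbd5, Cnbd1 and Nalcn, the last a sodium leak channel gene of 352 kb.

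**Figure D3:**
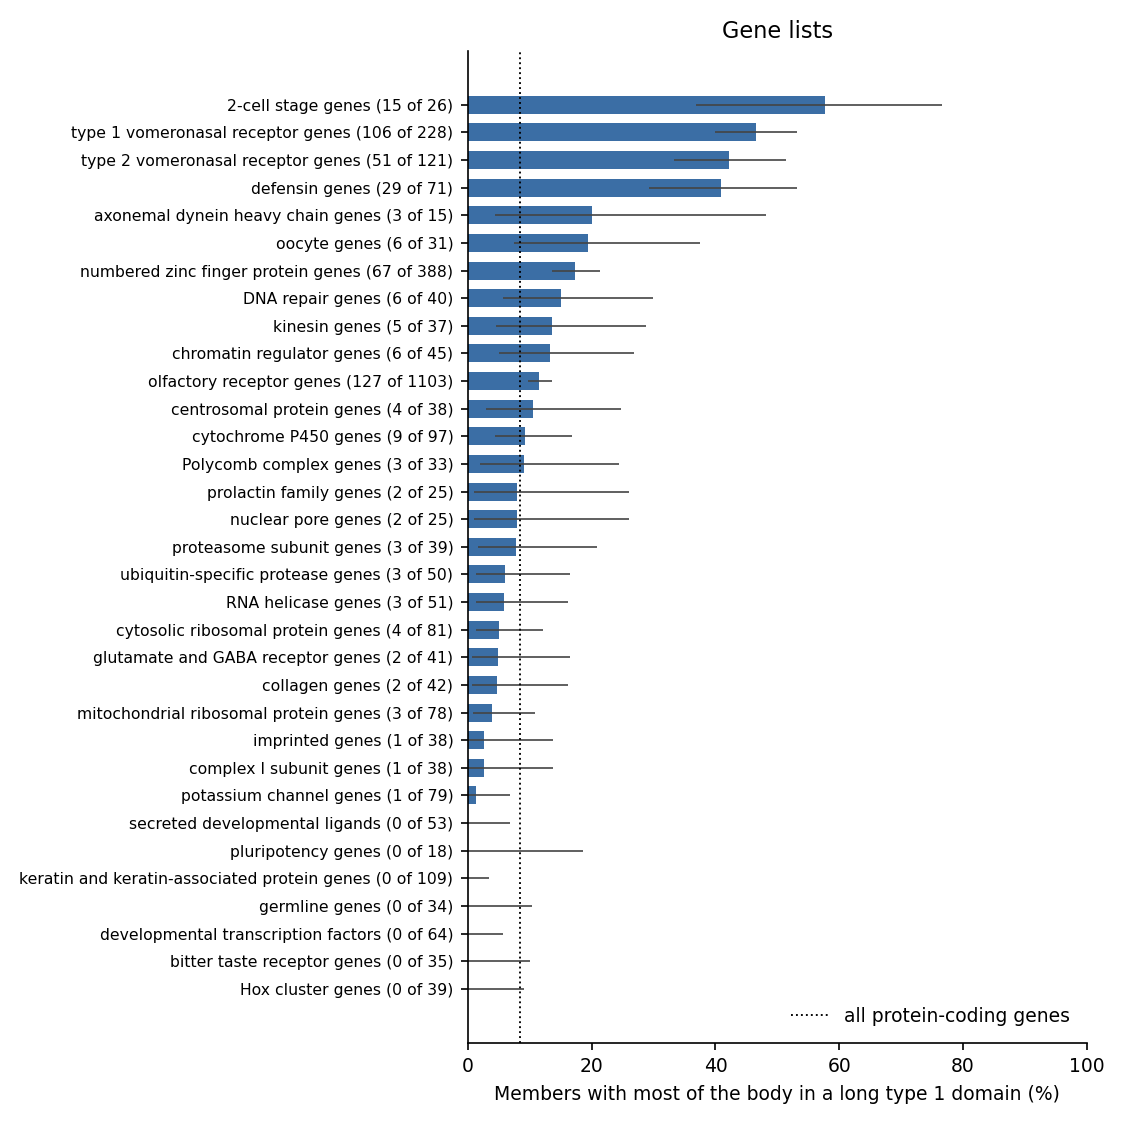
Share (%) of each gene list with most of the gene body in a long type 1 domain; lines are exact 95% Clopper-Pearson intervals over genes, and the dotted line marks 8.39%, the share of all protein-coding genes. Lists of 2-cell stage, vomeronasal receptor and defensin genes stand at 40.8% to 57.7%, and 7 lists are at 0.

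Gene lists were read against the 8.39% of all protein-coding genes. The intervals given for lists cover counting error only and take genes as independent, which clustered genes are not. Among receptor genes, 106 of 228 type 1 vomeronasal receptor genes (46.5%) lay in 9 domains and 51 of 121 type 2 genes (42.1%) in 12 domains. Counting neighbours within 100 kb once left 18 and 19 separate places. Olfactory receptor genes, which form the largest family, had 127 of 1103 (11.5%) in 18 domains, while 614 were mostly in type 5. None of the 35 bitter taste receptor genes was inside, with an exact 95% upper limit that includes 8.39%, and 26 of them were mostly in type 5.

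Of 26 genes known from the 2-cell stage, when the embryo's own transcription begins, 15 (57.7%, interval 36.9 to 76.6%) lay in 5 domains. They were the Tdpoz1 to Tdpoz5 genes in a domain of 730 kb, Zscan4b, Zscan4c, Zscan4d and Zscan4f in one of 1090 kb, Obox1 to Obox3 in one of 1035 kb, Tcstv1 and Tcstv3 in one of 600 kb, and Zfp352 in one of 345 kb. Of their 11 promoter windows 0 were CpG-rich and 8 were copied. Of 31 oocyte genes, 6 were inside (19.4%, interval 7.45 to 37.5%, which includes 8.39%). All 6 were Nlrp genes on chromosome 7: Nlrp2, Nlrp4a, Nlrp5, Nlrp9a, Nlrp9b and Nlrp9c. Nlrp5 encodes a maternal-effect protein of the egg's subcortical complex. Their 6 windows were neither CpG-rich nor copied. Of 388 numbered zinc finger genes, 67 (17.3%) lay in 28 domains, and 38.7% lay in shorter type 1 segments.

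DNA repair genes had 6 of 40 inside (15.0%, interval 5.71 to 29.8%), in 6 separate domains: the damage-signalling kinase genes Atm, Atr and Prkdc, the end-joining genes Polq and Xrcc4, and Fancl of the Fanconi anaemia pathway. The CpG ratio was 0.96 in Atm, 0.89 in Atr, 0.68 in Polq and 0.97 in Xrcc4. It was 0.18 in Fancl, the exception among the 5 with a window. Chromatin regulator genes had 6 of 45 inside (13.3%, interval 5.05 to 26.8%): Ash1l, Chd8, Kmt2c, Setdb2, Smarca4 and Smarcc1, and all 5 windows measured were CpG-rich. Polycomb complex genes had 3 of 33 (9.09%): Aebp2, Jarid2 and Mtf2, all accessory subunits of Polycomb repressive complex 2. Kinesin genes had 5 of 37, centrosomal protein genes 4 of 38, proteasome subunit genes 3 of 39, ubiquitin-specific protease genes 3 of 50, RNA helicase genes 3 of 51, nuclear pore genes 2 of 25 and cytosolic ribosomal protein genes 4 of 81. Mitochondrial ribosomal protein genes had 3 of 78 inside, complex I subunit genes 1 of 38, cytochrome P450 genes 9 of 97, prolactin family genes 2 of 25, collagen genes 2 of 42, glutamate and GABA receptor genes 2 of 41 and axonemal dynein heavy chain genes 3 of 15. These last were Dnah7a, Dnah7b and Dnah7c, a local group on chromosome 1. The intervals of the DNA repair and chromatin regulator lists both include the 8.39% of all genes. Shorter internal type 1 segments held 28.4% of all protein-coding genes, and 88.0% of nuclear pore genes and 66.7% of cytosolic ribosomal protein genes. They also held 68.9% of chromatin regulator and 60.0% of DNA repair genes. Lists below 28.4% there were kinesin, cytochrome P450, prolactin family, collagen, glutamate and GABA receptor, and axonemal dynein heavy chain genes.

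Classical Polycomb targets had no member in the domains. The 39 Hox cluster genes, 64 developmental transcription factor genes and 53 genes of secreted developmental ligands had 0 inside. Of these, 34, 38 and 21 lay mostly in type 4, which held 14.0% of all protein-coding genes, and 5, 25 and 23 in type 3, which held 33.8%. Shorter internal type 1 segments, with 28.4% of all protein-coding genes, held 0, 0 and 2, so the scarcity was not particular to long domains. The 18 pluripotency genes, 34 germline genes and 109 keratin and keratin-associated protein genes also had 0 inside long domains. Shorter internal type 1 segments held 5, 13 and 2 of them. For long domains, the exact 95% upper limits were 9.03% for Hox, 5.60% for transcription factor and 6.72% for ligand genes. They were 18.5% for pluripotency, 10.3% for germline and 3.33% for keratin genes. Those of the Hox, pluripotency and germline genes include the 8.39% of all genes. Imprinted genes had 1 of 38 inside, Snrpn, and potassium channel genes 1 of 79, Kcnd2, with 50.5% of its body.

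Promoters in the domains were poor in CpG compared with other type 1 promoters. A window was available for 1428 of the 1725 genes, with none on chromosome 18. The median CpG ratio was 0.30, with quartiles of 0.11 and 0.77, against 0.77 in shorter internal type 1 segments. Type 2 had 0.57, type 3 0.62, type 4 0.46 and type 5 0.19. A ratio of at least 0.6, called CpG-rich here, was found in 487 windows (34.1%), where 49.7% of all protein-coding windows had it. The share was 67.5% in shorter type 1 segments. The ratios in long domains spread widely, as between Kbtbd3 and Casp1 in 1 domain. All protein-coding windows, with quartiles of 0.23 and 0.84, spread about as widely. Whether the windows form separate groups was not tested.

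**Figure D4:**
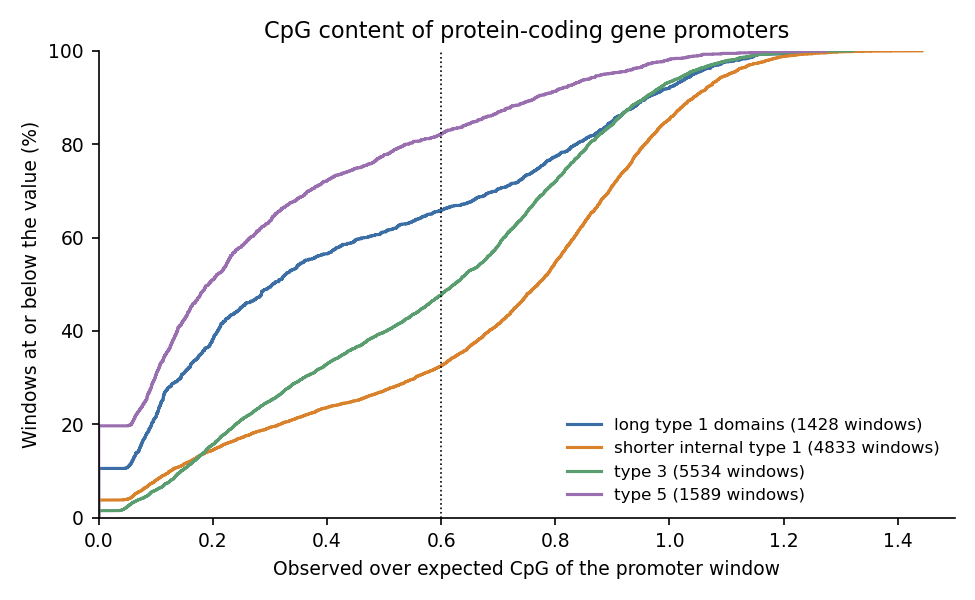
Cumulative share (%) of protein-coding promoter windows by CpG ratio (observed over expected) in long type 1 domains, shorter internal type 1 segments, type 3 and type 5; the dotted line marks the limit of 0.6. The curve of long domains runs between types 5 and 3 up to the limit, where 34.1% of its windows lie above it against 67.5% for shorter type 1 segments.

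Copies were frequent among these promoters. A window was called copied when over 50% of its 31-base words occurred, on either strand, at another position among the 32851 windows of the annotation. Of the domain windows 383 (26.8%) were copied, where 4.33% of all protein-coding windows were, so the domains held 383 of the 712 copied windows. Shorter type 1 segments had 4.14%, type 5 2.33% and types 2 to 4 between 0.418% and 1.05%. The first segments of chromosomes, outside the members, had 77.3% of 44 windows copied. Copied windows in the domains had a median CpG ratio of 0.16, and 20 of the 383 were CpG-rich. Among the 1045 windows that were not copied, 44.7% were CpG-rich (exact 95% interval 41.6 to 47.8%), against 69.8% (68.5 to 71.1%) of such windows in shorter type 1 segments. The lower CpG content relative to shorter type 1 segments was thus also present without the copies. Leaving out copies did not leave out gene arrays: all 111 olfactory receptor windows in the domains stayed, and 0 of them were CpG-rich. The part of such arrays in the difference was not tested.

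Copies and CpG content both differed between length classes. Domains under 500 kb (409), from 500 kb to under 1 Mb (109) and of at least 1 Mb (28) had 9.46%, 22.4% and 74.5% of their windows copied, and 48.6%, 23.0% and 8.41% CpG-rich. Median gene length was 25.3, 13.0 and 6.64 kb, and pseudogenes made up 27.1%, 34.6% and 44.7% of the annotated genes. The density of protein-coding genes, 6.98, 5.51 and 8.39 per Mb, had no such order. Of the 10 longest domains, 7 had 0 CpG-rich windows. Windows were pooled over domains, and the longest domain alone gave 85 of the 321 windows of the class of at least 1 Mb. It also gave 79 of the 239 copied windows of that class. Reads that match several copies cannot be placed by sequence alone, and their treatment is not stated in the sources used here. The part of copied sequence in the type labels was not tested.

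**Figure D5:**
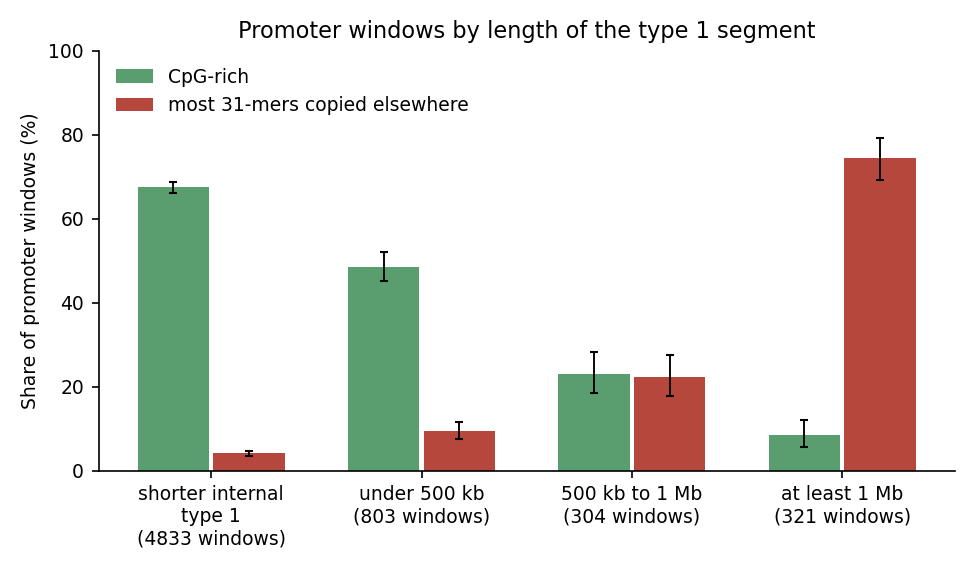
Share (%) of promoter windows that were CpG-rich (green) or copied (red) in shorter internal type 1 segments and in 3 length classes of long type 1 domains. Lines are exact 95% Clopper-Pearson intervals over windows, which take windows as independent although many came from the same domain. From the shortest to the longest class of domains the green bars go from 48.6% to 8.41% and the red bars from 9.46% to 74.5%.

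Families differed in whether their promoters were copied. In the domains, 72 of 99 windows of type 1 vomeronasal receptor genes, 25 of 48 of type 2 genes and 13 of 16 defensin windows were copied, but 0 of 111 olfactory receptor windows. CpG-rich windows numbered 0 in all 4 of these families. Among zinc finger genes, 22 of 62 windows were copied and 15 were CpG-rich.

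Short promoter words were searched on both strands. The word TATAAA, the core of the TATA box, occurred in 18.6% of domain windows, against 13.5% of all protein-coding windows. CCAAT, the word of the CCAAT box, occurred in 45.6% against 39.0%. GGGCGG, the GC box, occurred in 30.1% against 47.3%, and in 55.8% of windows in shorter type 1 segments. CCGGAAG, the core of ETS factor sites, was found in 12.3% of both sets and in 20.0% of windows in shorter type 1 segments. Both GGGCGG and CCGGAAG contain CG, so their counts move with CpG content. The words were counted at any position of a window, so TATAAA need not lie where a TATA box would. Domain windows had a median GC content of 48.7%, against 56.7% of all protein-coding windows. The shares were not adjusted for base content or copies. Of the windows printed above, Vmn1r258 and Gm46934 held TATAAA.

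Domain borders were also set against gene starts. The table of windows used here holds none on chromosome 18, whose borders were left out. Windows were lacking in other stretches too, where a nearby gene start could not be counted. For example, chr1:9925001-10585000 held 6 protein-coding genes and chr1:16540001-17120000 held 5, both with 0 windows. In all, 82.8% of protein-coding genes in long domains and 80.1% of all protein-coding genes had a window. How these gaps moved the shares below was not tested. Of the 1038 borders on the other chromosomes, 17.2% had the start of a protein-coding gene within 10 kb, against 21.7% of 14160 borders of shorter internal type 1 segments and 13.0% of all positions on the grid of 5 kb bins. Of 211 protein-coding genes that crossed 1 side of a long domain, 85 (40.3%, exact 95% interval 33.6 to 47.2%) had their start inside. For shorter type 1 segments it was 36.6% of 2519 (34.7 to 38.5%), so the intervals overlapped.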

How the data were processed

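CUT&RUN libraries of mouse oocytes and embryos were processed by the authors on mm10. Per the submitters' processing notes the tools included deepTools 3.0.2, Picard 2.8.0, Bowtie2 2.3.4.3 and Trim Galore 0.4.5. The value deposited by the authors is a type label from 1 to 5 per segment, a category. Settings, version and input libraries of ChromHMM were not given in the sources used here.

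Domains, gene lists and comparisons were chosen with earlier results of these data known. Genes, symbols and promoter windows came from RefSeq tables of GRCm38.p6, with 46709 genes placed and 333 on scaffolds left out. A gene belonged to a domain when over 50% of its body lay inside. The first listed window was used for each gene, and 16457 of 20558 protein-coding genes had one. The domains named in the text were the 10 longest, the 5 with the most protein-coding genes, the 5 longest without one and the longest of each chromosome. Genes named in the 10 longest domains were mainly from the first and last 3 of a domain, and in some of these domains none was named. Others were the 10 longest wholly inside, genes in the longest domains of other chromosomes, and members of the lists in alphabetical order. Named families were those of at least 20 genes with the 8 highest shares and the largest with none. The chain examples, the domains named for lacking windows, the further list members, the non-coding genes and the promoters quoted for single genes were chosen after their values were seen.

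Intervals are exact 95% Clopper-Pearson intervals and cover counting error only. They take genes or windows as independent, which clustered ones are not. Functions were tested on simulated data. Python 3.11.15, pandas 2.3.3, numpy 2.4.6, scipy 1.17.1 and matplotlib 3.10.9 were used. Other minimum lengths, gene assignments and promoter rules were tried as alternatives.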

Additional observations from a re-analysis of the deposited data

How the results depend on the processing

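Type labels could not be checked against library depth or replicates, and promoter windows were lacking for part of the genes, all of chromosome 18 among them. Of 67 alternative values, 49 stayed within 1.5 times the reported count, its 95% interval or 1 SD between chromosomes, and 18 did not. A minimum length of 200 kb gave 821 domains. A minimum of 500 kb gave 137 domains with 116.05 Mb, 33.0% of sides of type 3 and 21.2% of domains without a protein-coding gene. With all annotated genes the density was 17.7 per Mb, and 2.93% of domains touched no gene. Requiring the whole body inside left 28 of 33 list counts alike, and gave 0 imprinted and 0 potassium channel genes, 1 glutamate or GABA receptor gene, 1 collagen gene and 1 axonemal dynein gene. Lists already at 0 could not change under this rule. Using unmerged segments could not change the domains either, since merging joined none. These fixed outcomes are counted among the values that stayed alike. The CpG-rich share was 26.6% at a ratio of at least 0.75 (all protein-coding windows 35.2%). It was 47.1% with neighbours of 1 family within 100 kb counted once (all 58.1%). Chosen after seeing the data, leaving out copied windows gave 44.7% (all 51.6%). Likewise chosen after seeing the data, the copied share was 42.1% when any 31-base word counted (all 11.4%), 17.0% with families counted once (all 2.08%) and 20.8% without chromosome 7 (all 3.65%). The share of domains in the first 2 deciles stayed within its interval at 500 kb and without chromosome 7. Bridging interruptions of 1 bin left the number and covered length of long domains unchanged. No pair of neighbouring long domains had a gap of at most 5 kb.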
